A study of Mus musculus with 14 samples.

Results

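The mRNA levels of 10 genes that move platinum, copper and other drugs across membranes were examined in murine KMF ovarian tumor cells. The members were taken by gene name from the table of 35275 genes, and all 10 were found there, each in a single row. They are the copper importer Slc31a1 and its relative Slc31a2, the copper exporters Atp7a and Atp7b, and 6 drug efflux pumps of the ATP-binding cassette (ABC) family, Abcb1a, Abcb1b, Abcc1, Abcc3, Abcc4 and Abcg2. The data comprised 14 poly(A) RNA-seq libraries from 5 lines, all grown for 5 days as anchorage-independent tumorspheres in serum-free medium. KMF is the parental line (3 samples), which derives from ID8 mouse ovarian epithelial cells passaged in C57Bl6 mice. FAK KO is the single CRISPR clone KT13, which lacks focal adhesion kinase (FAK-/-, 3 samples). The other 3 lines were all made from this one clone and carry its disrupted FAK gene, which holds small deletions or insertions predicted to end translation. FAK-WT cells re-express GFP-FAK from a CMV promoter (3 samples), FAK-R454 cells express the kinase-inactive form of the same fusion (2 samples), and β-catenin ΔGSK cells express an active β-catenin (3 samples). The cells that gave the clone were enriched with puromycin before cloning, a step not described for the KMF samples. The 3 lines made from the clone were drug-selected and enriched by flow cytometry after transduction. No sample is described as treated with platinum or another drug in the sphere culture. The values are thus levels in growing spheres without added drug, and the part of the earlier selection in them was not tested.

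Cisplatin and related drugs enter cells partly through copper importers, and copper-exporting ATPases can sequester or expel them. ABC pumps use ATP to expel taxanes, anthracyclines and many conjugated metabolites, and high levels of these pumps are a known feature of multidrug resistance in ovarian tumors. The 2 rodent genes Abcb1a and Abcb1b share the role of the single human gene for P-glycoprotein, the best known of these pumps.

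Levels are given as FPKM, fragments per kilobase of gene length scaled to the size of the library, as the authors deposited them, so that levels of different genes are compared per length. Each library held between 25390558 and 35289859 fragments on genes (median 28720224). Differences between lines were tested with limma on log2(FPKM + 0.1), which understates changes of low genes, over all genes with a mean FPKM above 1 in at least 1 of the lines compared. A gene is called changed where the adjusted p (Benjamini-Hochberg, over all genes tested) fell under 0.05, and changed 2-fold when its log2 fold change was also at least 1 in size. Ptk2, which encodes FAK, was at 19.0 ± 1.45 FPKM in FAK KO cells and at 43.4 ± 1.76 and 62.4 ± 4.42 FPKM in FAK-WT and FAK-R454 cells (mean ± SD), as counted over the whole gene. It was at 24.3 ± 0.421 FPKM in KMF cells, 1.28 times the FAK KO mean, so its mRNA level is no check of the loss of FAK. The labels fit an ovarian epithelial source only in part: Krt8, Krt18, Krt19, Wt1 and Msln reached at least 43.2 FPKM in each library, whereas Krt7, Cdh1 and Epcam stayed below 1 FPKM. Of 8 markers of leukocytes, endothelium and red cells, only Pecam1 exceeded 1 FPKM in any library, Ptprc, Cd3e and Kdr were at or near 0, and the 8 summed to between 0.347 and 1.49 FPKM. In bulk samples, fewer cells with a transcript and less transcript per cell cannot be told apart.

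The 10 transporters spanned a wide range of levels. Abcc1 was the most abundant in all 14 libraries (29.9 to 53.3 FPKM), and Abcc4 (12.0 to 23.6) and Slc31a1 (10.3 to 18.9) had the next highest means over all libraries, although Slc31a1 was slightly above Abcc4 in both FAK-R454 libraries. Slc31a2, Abcg2 and Atp7a lay between 3.44 and 10.7 FPKM. The level of Abcg2 per length is uncertain, because its gene model in the table is 2556 bases long against 5717 bases for its transcript in GENCODE M21; this does not touch comparisons between lines. Abcb1a, Abcc3 and Abcb1b ranged from 0.246 to 5.14 FPKM, and Atp7b was nearly absent. The members thus differed in how far they moved. The mean log2 levels of Abcb1a, Abcb1b and Abcc3 spanned 3.08, 2.51 and 1.68 between their highest and lowest lines, and those of the other 6 members that were tested spanned between 0.34 and 0.97.

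**Figure D1:**
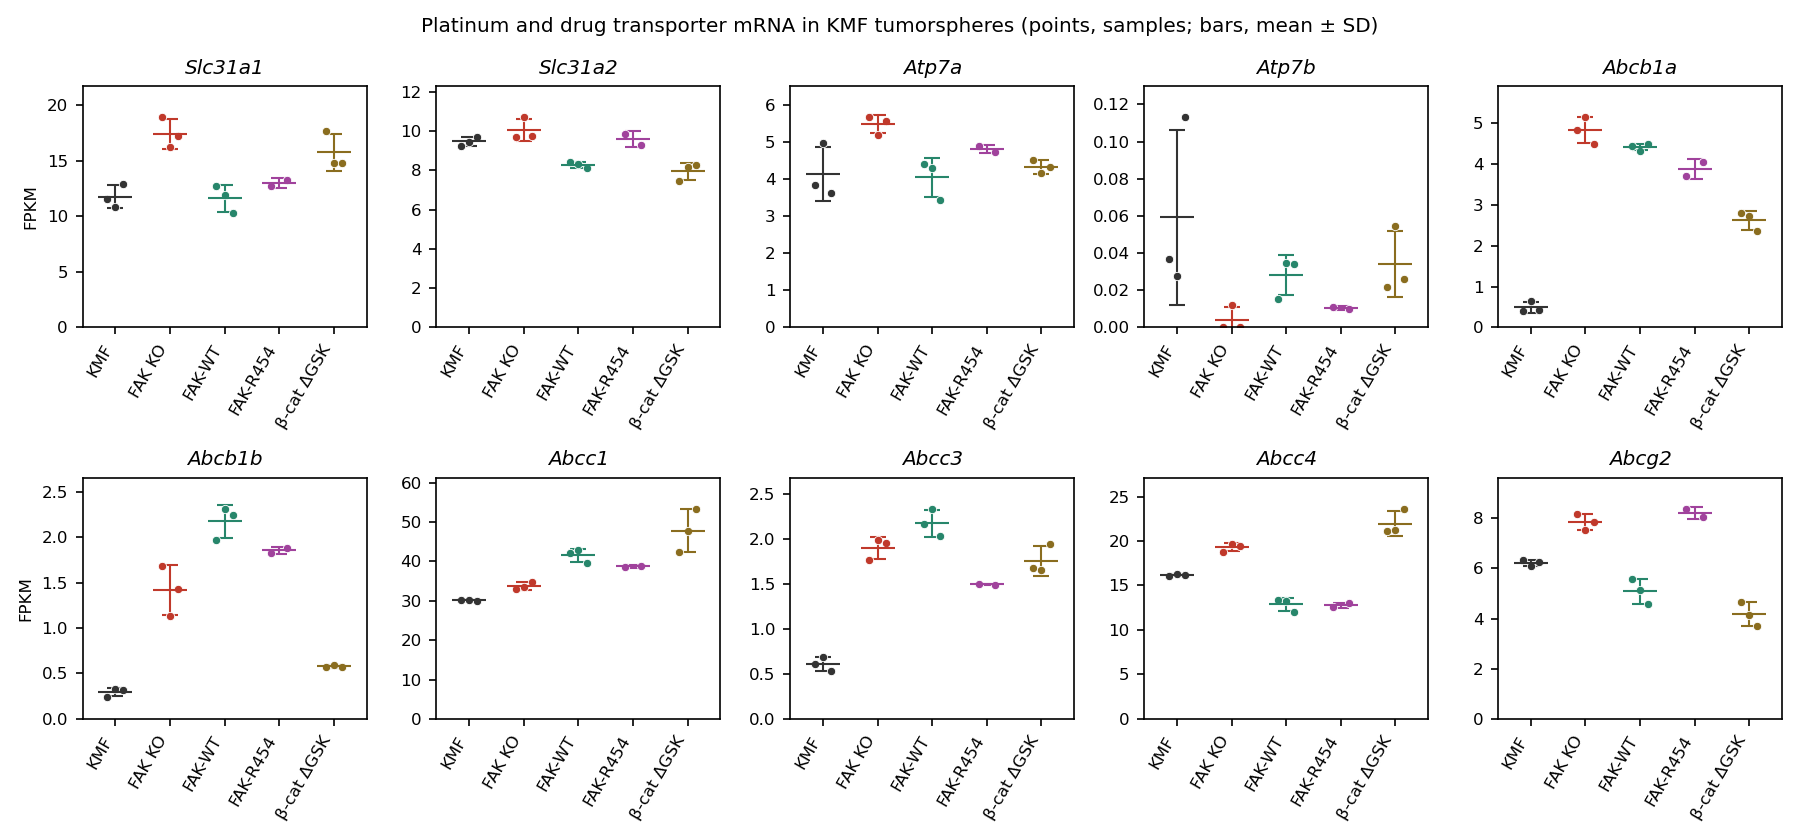
FPKM of the 10 transporter genes in each of the 5 lines, 1 panel a gene with its own axis from 0 (points, samples; horizontal lines with bars, mean ± SD; n = 3, and 2 for FAK-R454). The 3 KMF samples lie below all other samples for Abcb1a, Abcb1b and Abcc3, and the 3 FAK KO samples lie above all KMF and FAK-WT samples for Slc31a1, Atp7a, Abcc4 and Abcg2.

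Slc31a1 encodes CTR1, the main high-affinity copper importer of mammalian cells and a route of cisplatin entry. It lies on chr4:62360727-62391769 (plus strand, mouse GRCm38, as are all positions here). FAK KO cells had 18.9, 16.2 and 17.2 FPKM, KMF cells 11.6, 10.8 and 12.9, and FAK-WT cells 12.7, 11.9 and 10.3. FAK-R454 cells had 12.7 and 13.3 FPKM and β-catenin ΔGSK cells 17.7, 14.8 and 14.8. The importer was thus highest in the FAK KO clone, where no sample overlapped KMF, FAK-WT or FAK-R454, whereas β-catenin ΔGSK samples overlapped those of FAK KO. Against FAK KO, the log2 fold change was -0.57 for KMF (adjusted p = 9.63e-04), -0.59 for FAK-WT (adjusted p = 0.00237) and -0.42 for FAK-R454 (adjusted p = 0.0113). The R454 call was lost without either FAK-R454 sample (-0.39, adjusted p = 0.130 without the first, and -0.45, 0.0782 without the second), where the single remaining sample is assumed to vary like those of the other line. In β-catenin ΔGSK cells the difference was -0.15 (95% interval -0.36 to 0.07, adjusted p = 0.203), and between FAK-WT and KMF it was -0.02 (interval -0.25 to 0.21). The β-catenin ΔGSK difference passed in 2 of 16 alternatives. These were the replicate block (-0.15, adjusted p = 0.0475) and the fit without β-catenin ΔGSK replicate 1 (-0.23, adjusted p = 0.0384).

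Slc31a2 encodes CTR2, a related protein of endosomes and lysosomes, and lies near Slc31a1 at chr4:62262562-62298411 (plus strand). Its levels were the steadiest of the tested members, with a highest line mean only 1.27 times the lowest. FAK-WT (8.42, 8.35 and 8.12 FPKM) and β-catenin ΔGSK samples (7.45, 8.16 and 8.27) lay below all those of the other 3 lines. KMF samples had 9.25, 9.47 and 9.72 FPKM, FAK KO samples 9.71, 10.7 and 9.77, and FAK-R454 samples 9.87 and 9.30, and these 3 lines overlapped. The change from FAK KO was -0.28 in FAK-WT (SE 0.07, adjusted p = 0.0167) and -0.34 in β-catenin ΔGSK cells (SE 0.08, adjusted p = 0.00706). The FAK-WT call did not pass without FAK KO replicate 3 (-0.30, adjusted p = 0.0510) or FAK-WT replicate 2 (-0.28, adjusted p = 0.0565), where the change stayed about as large. It also did not pass with median-of-ratios scaling (-0.21, adjusted p = 0.0544) or with each chromosome's median subtracted (-0.19, adjusted p = 0.0692).

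Atp7a, mutated in Menkes disease, encodes a copper-exporting ATPase and lies on the X chromosome (chrX:106027276-106124926, plus strand). FAK KO samples were again the highest, at 5.67, 5.21 and 5.57 FPKM, and did not overlap any other line. KMF samples had 3.84, 4.98 and 3.63 FPKM, FAK-WT samples 4.41, 4.31 and 3.44, FAK-R454 samples 4.89 and 4.74, and β-catenin ΔGSK samples 4.52, 4.16 and 4.33. The log2 fold change from FAK KO was -0.41 for KMF (adjusted p = 0.0214), -0.43 for FAK-WT (adjusted p = 0.0158) and -0.33 for β-catenin ΔGSK (adjusted p = 0.00979), and it was -0.18 for FAK-R454 (adjusted p = 0.168). Genes of the X chromosome had a median change of -0.13, -0.17 and -0.30 in these 3 called comparisons, against -0.04, -0.07 and -0.08 for all other genes. After subtraction of each chromosome's median the values of Atp7a were -0.27 (adjusted p = 0.123), -0.26 (adjusted p = 0.0693) and -0.07 (adjusted p = 0.491), so no call was kept. The KMF call was also lost without KMF replicate 1 or 3 or FAK KO replicate 1 or 3 (values from -0.40 to -0.32, adjusted p from 0.0556 to 0.0756). The FAK-WT call was lost without FAK KO replicate 1 (-0.41, adjusted p = 0.0524) or 3 (-0.42, adjusted p = 0.0590).

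Atp7b, mutated in Wilson disease, encodes the second copper-exporting ATPase (chr8:21992785-22060305, minus strand). It was close to undetected, with 78 fragments over the 14 libraries. The libraries held 7, 5 and 26 fragments in KMF, 0, 2 and 0 in FAK KO, 3, 6 and 7 in FAK-WT, 2 and 2 in FAK-R454, and 4, 9 and 5 in β-catenin ΔGSK cells. With levels of at most 0.113 FPKM it passed neither filter on low genes, so no test of it is reported (it entered the fit only in the alternative with no filter), and a count of 0 allows up to 3 fragments by counting error alone. A single KMF library held 26 of the 38 fragments of its line.

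P-glycoprotein transcripts set KMF cells apart from every line of the clone. Abcb1a (chr5:8660077-8748575, plus strand) was at 0.399, 0.638 and 0.431 FPKM in KMF cells. It was at 4.83, 5.14 and 4.50 FPKM in FAK KO, 4.43, 4.33 and 4.49 in FAK-WT, 3.70 and 4.06 in FAK-R454, and 2.79, 2.73 and 2.35 in β-catenin ΔGSK cells. No 2 lines overlapped, and the FAK KO mean was 9.86 times the KMF mean. The KMF values rest on 58, 89 and 76 fragments. Against FAK KO its log2 fold change was -3.08 for KMF (SE 0.17, adjusted p = 2.99e-06) and -0.86 for β-catenin ΔGSK (SE 0.11, adjusted p = 1.88e-04). In the main fit neither form of FAK moved Abcb1a past the threshold (FAK-WT -0.12, interval -0.32 to 0.07, adjusted p = 0.266, and FAK-R454 -0.31, interval -0.54 to -0.08, adjusted p = 0.0664). The FAK-R454 difference passed in 1 of 14 alternatives, with limma-voom (-0.31, adjusted p = 0.0407). FAK-WT cells stayed 2.96 above KMF on the log2 scale (adjusted p = 3.49e-05).

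Abcb1b lies directly downstream in the same orientation (chr5:8798147-8866314). It too was lowest in KMF cells (0.246, 0.330 and 0.320 FPKM), with β-catenin ΔGSK cells next (0.568, 0.598 and 0.571). FAK KO samples had 1.68, 1.13 and 1.43 FPKM, FAK-R454 samples 1.83 and 1.88, and FAK-WT samples 1.97, 2.31 and 2.24. As for Abcb1a no 2 lines overlapped, but here the FAK-WT line was the highest, with a mean 7.27 times that of KMF. The change from FAK KO was -1.92 in KMF (SE 0.22, adjusted p = 1.58e-04), -1.14 in β-catenin ΔGSK (SE 0.18, adjusted p = 8.59e-04) and 0.60 in FAK-WT cells (SE 0.16, adjusted p = 0.0210). In FAK-R454 cells it was 0.39 (interval -0.04 to 0.81, adjusted p = 0.170). The FAK-WT call was lost without FAK KO replicate 3 (0.61, adjusted p = 0.0589) or FAK-WT replicate 2 (0.55, adjusted p = 0.0762), and with no filter on low genes (0.60, adjusted p = 0.0515). The change itself stayed about as large. Genes of chromosome 5 had a median change of -0.32 in β-catenin ΔGSK against FAK KO cells, against -0.07 elsewhere. With that median subtracted Abcb1a and Abcb1b were still lower there, by -0.55 (adjusted p = 0.00237) and -0.83 (adjusted p = 0.00462). The sequence of the 2 genes is partly shared, though how reads were assigned was not examined. Of the 50-base stretches, 18.6% of those of the Abcb1a transcript and 19.6% of those of Abcb1b also occur in transcripts of other genes in GENCODE M21. Among those genes are the other member of the pair, Abcb4 and Gm42686, and for Abcb1b also Gm5106. The antisense transcripts among them cover 553 exon bases of Abcb1a (Gm42686) and 143 of Abcb1b (Gm5106), which the unstranded libraries cannot separate. No such stretch was shared for the other 8 members.

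The regions just before the start sites of this pair are shown because both genes were low in KMF and β-catenin ΔGSK cells. They are the 250 bases before the RefSeq start on the plus strand of GRCm38.p6, chr5:8566841-8567090 for Abcb1a and chr5:8797897-8798146 for Abcb1b. Capitals mark letters that match a motif searched on both strands.
Abcb1a: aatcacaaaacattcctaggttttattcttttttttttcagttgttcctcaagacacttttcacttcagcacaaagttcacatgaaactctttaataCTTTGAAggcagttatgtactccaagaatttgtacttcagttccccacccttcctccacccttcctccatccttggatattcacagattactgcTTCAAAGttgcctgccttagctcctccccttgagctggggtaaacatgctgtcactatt
Abcb1b: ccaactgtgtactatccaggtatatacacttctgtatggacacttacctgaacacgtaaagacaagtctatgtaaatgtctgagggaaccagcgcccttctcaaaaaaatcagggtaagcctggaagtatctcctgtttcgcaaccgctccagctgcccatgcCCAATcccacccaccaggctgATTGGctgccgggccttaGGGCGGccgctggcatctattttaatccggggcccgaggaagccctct
The RefSeq start of Abcb1a lies 92986 bases before its start in the table, and that of Abcb1b at the same base. The Abcb1a region holds the TCF/LEF letters CTTTGAA, the motif of the factors that partner β-catenin, at 153 bases before the start, and their reverse complement TTCAAAG at 59 bases. Abcb1b holds no such letters, but a GC box (GGGCGG, 48 bases before the start) and 2 matches to the inverted CCAAT box on either strand (CCAAT at 87 and ATTGG at 66 bases). Of 32817 mouse promoter regions of this length, 14.8% hold a TCF/LEF match (the letters CTTTG followed by AA, AT, TA or TT), 32.7% a GC box and 33.8% the letters ATTGG or their reverse complement. Neither region held an E-box (CACGTG, 6.02% of promoters), a metal response element (TGCACNC or TGCGCNC, 21.4%), an antioxidant response element (TGACNNNGC, 10.2%) or an AP-1 site (TGANTCA, 6.75%). The base composition also differed, with 40.4% G and C before Abcb1a and 52.8% before Abcb1b. Among the other members, Abcc4 also held a TCF/LEF match (AACAAAG, 106 bases before its RefSeq start at chr14:118676931). Its mean was 22.0 FPKM in β-catenin ΔGSK and 19.3 in FAK KO cells, so it was not lower there. All these matches describe letters only, not bound sites, and their part in the levels was not tested.

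The genes around this pair had smaller differences between KMF and FAK KO cells. Of the 9 other genes within 1 Mb that exceeded 1 FPKM in a sample, Steap4 (-0.88), Crot (-0.57), Slc25a40 (-0.41) and Sri (-0.38) were lower in KMF than in FAK KO cells, and Tmem243 was higher (0.38), whereas the remaining 4 did not pass the test. Steap4, with the largest difference of the 9, stayed under a 2-fold change in this comparison. For β-catenin ΔGSK against FAK KO cells, however, Steap4 changed by -2.20, against -0.86 for Abcb1a and -1.14 for Abcb1b. The mean of Slc25a40 was 2.94 FPKM there against 6.09 in FAK KO cells, whereas the means of Dbf4, Tmem243 and Gm7332 were higher than in FAK KO cells.

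**Figure D2:**
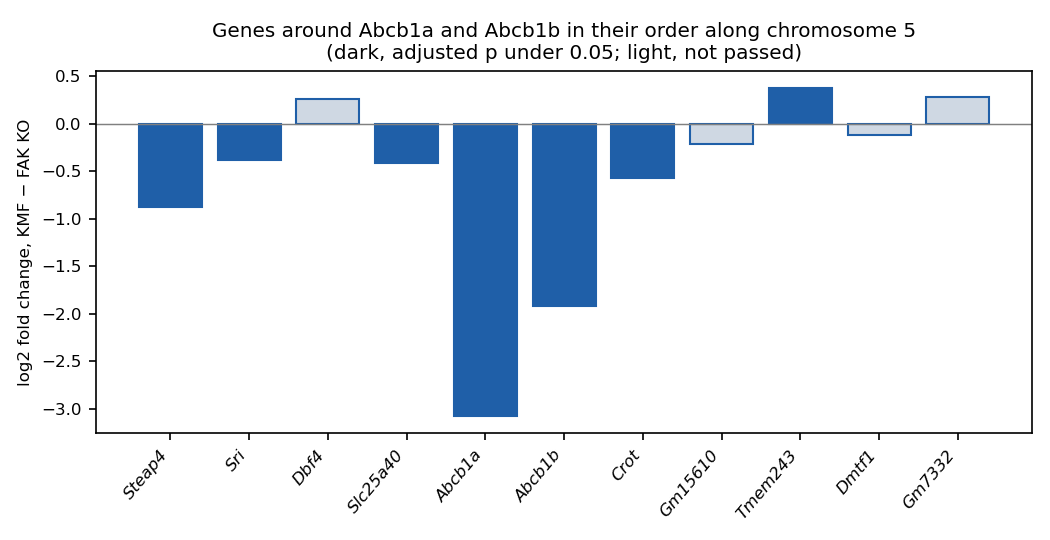
Log2 fold change of KMF relative to FAK KO (vertical axis) for the expressed genes around Abcb1a and Abcb1b, in their order along chromosome 5 but not to distance (dark bars, adjusted p under 0.05; light bars, not passed). Abcb1a (-3.08) and Abcb1b (-1.92) lie below all 9 neighbours, which range from -0.88 to 0.38.

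Abcc1, Abcc3 and Abcc4 encode multidrug resistance-associated proteins, which export conjugated and anionic drugs. Abcc1 (MRP1, chr16:14361558-14475737, plus strand) was lowest in KMF cells (30.1, 30.3 and 29.9 FPKM) and next lowest in FAK KO cells (33.0, 33.5 and 34.8). FAK-R454 cells had 38.5 and 38.9 FPKM, FAK-WT cells 42.2, 42.8 and 39.6, and β-catenin ΔGSK cells 42.4, 47.8 and 53.3. Abcc1 was the sole tested member called higher than FAK KO for both FAK-WT and β-catenin ΔGSK, by 0.30 (adjusted p = 0.00658) and 0.50 (adjusted p = 0.00135) on the log2 scale. The FAK-R454 difference was 0.20 (interval 0.05 to 0.34, adjusted p = 0.0586) and passed in 4 of 15 alternatives (0.0420 to 0.306). The KMF difference of -0.17 passed (adjusted p = 0.0361) but kept its call in only 8 of 16 alternative analyses (adjusted p from 0.0243 to 0.159). The call was lost without KMF replicate 1 (-0.17, adjusted p = 0.111), 2 (-0.17, adjusted p = 0.0961) or 3 (-0.16, adjusted p = 0.0546). It was also lost without FAK KO replicate 3 (-0.14, adjusted p = 0.159).

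Abcc3 (MRP3, chr11:94343295-94392997, minus strand), an exporter of bile salts and glucuronides, was low throughout and lowest in KMF cells (0.612, 0.687 and 0.532 FPKM). It was at 1.76, 1.99 and 1.95 FPKM in FAK KO, 2.16, 2.33 and 2.03 in FAK-WT, 1.50 and 1.49 in FAK-R454, and 1.67, 1.65 and 1.94 in β-catenin ΔGSK cells. KMF samples thus stood apart from those of all 4 clone lines, as for P-glycoprotein. The change of KMF from FAK KO was -1.50 (SE 0.15, adjusted p = 9.68e-05) and that of FAK-WT from KMF was 1.68 (SE 0.14, adjusted p = 1.53e-04). In the main fit no re-expressed construct moved it past the threshold against FAK KO cells (0.19 in FAK-WT, adjusted p = 0.239, -0.32 in FAK-R454, adjusted p = 0.133, and -0.11 in β-catenin ΔGSK, adjusted p = 0.477). The FAK-R454 difference passed in 1 of 14 alternatives, limma without trend (-0.32, adjusted p = 0.0456). FAK-WT samples all lay above FAK-R454 samples, with a log2 difference of 0.51 (interval 0.23 to 0.79, adjusted p = 0.0533). This difference passed in 7 of 14 alternative analyses (adjusted p from 0.0149 to 0.288).

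Abcc4 (MRP4, chr14:118482692-118706219, minus strand), which exports cyclic nucleotides and nucleotide analogs, was lower with either form of FAK. FAK KO samples had 18.8, 19.7 and 19.4 FPKM, FAK-WT samples 13.4, 13.2 and 12.0, and FAK-R454 samples 12.6 and 13.0. KMF cells lay between (16.1, 16.3 and 16.2) and β-catenin ΔGSK cells above (21.1, 21.2 and 23.6). The change from FAK KO was -0.58 in FAK-WT (SE 0.07, adjusted p = 5.21e-04) and -0.59 in FAK-R454 cells (SE 0.07, adjusted p = 9.17e-04). The difference between the 2 FAK forms was 0.01 (interval -0.15 to 0.17, adjusted p = 0.946). In KMF cells the change was -0.25 (adjusted p = 0.00685, or -0.14 and 0.108 with each chromosome's median subtracted), and in β-catenin ΔGSK cells 0.18 (interval 0.02 to 0.34, adjusted p = 0.0510), which passed in 6 of 16 alternative analyses (adjusted p from 0.00943 to 0.176). FAK-WT cells were also below KMF, by -0.33 (adjusted p = 0.00405).

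Abcg2 encodes the breast cancer resistance protein, the pump behind the side population of stem-like cells (chr6:58584523-58692869, plus strand). FAK-R454 (8.37 and 8.05 FPKM) and FAK KO samples (8.16, 7.53 and 7.84) were the highest and overlapped. KMF samples had 6.33, 6.10 and 6.26 FPKM, FAK-WT samples 5.56, 5.12 and 4.58, and β-catenin ΔGSK samples 4.66, 4.13 and 3.72. Abcg2 was thus below FAK KO levels for both FAK-WT and β-catenin ΔGSK, with changes of -0.62 (SE 0.09, adjusted p = 0.00157) and -0.90 (SE 0.10, adjusted p = 9.44e-05), while kinase-inactive FAK gave 0.07 (interval -0.11 to 0.24, adjusted p = 0.570). The difference between FAK-WT and FAK-R454 cells was itself called, at -0.68 (interval -0.92 to -0.45, adjusted p = 0.0165). It kept its sign but lost the call without FAK-WT replicate 2 (-0.69, adjusted p = 0.0715), without FAK-R454 replicate 1 (-0.66, 0.183) and without FAK-R454 replicate 2 (-0.71, 0.176), where, in the last 2 fits, a single FAK-R454 sample is assumed to vary like those of the other line. KMF was lower than FAK KO by -0.33 (adjusted p = 0.00484), but genes of chromosome 6 had a median change of -0.34 in this comparison, against -0.03 elsewhere, and with that median subtracted the value was 0.01 (adjusted p = 0.940).

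In each comparison 9 of the 10 members passed the filter on low genes, and Atp7b in none. The 4 comparisons against FAK KO share its 3 samples and are therefore not independent of each other. For KMF against FAK KO, 8 members were lower and 0 higher, where 28.7% and 23.1% of all 11893 genes tested were lower and higher. The count was 5 with each chromosome's median subtracted, and 5 of the 6 left to test with the filter at FPKM above 5. Of the 8 members, Abcb1a, Abcb1b and Abcc3 were lower 2-fold (4.04% of all genes, and 8.01% in either direction), and these 3 passed the filter only through the FAK KO cells, so they had to differ. The member median was -0.41 and that of all tested genes -0.05. Samples of the 2 lines did not overlap for 8 of the 9 (60.8% of all genes).

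For FAK-WT against FAK KO, 2 members (Abcb1b, Abcc1) were higher and 5 (Slc31a1, Slc31a2, Atp7a, Abcc4, Abcg2) lower, where 15.6% and 25.2% of 11841 genes were higher and lower, and no member changed 2-fold (4.62% of all genes). Without FAK KO replicate 3 the count was 1 higher and 3 lower. Samples did not overlap for any of the 9 members (56.1% of all genes did not overlap), and the member median was -0.28 against -0.08. For FAK-R454 against FAK KO, 2 were lower (Slc31a1, Abcc4) and 0 higher, where 9.89% and 9.78% of 11818 genes were, with medians of -0.18 and -0.03. None changed 2-fold (2.74% of all genes), and 7 did not overlap (55.1%). Between FAK-WT and FAK-R454 cells, Abcg2 was the single member called (lower in FAK-WT; 4.44% of 11782 genes were lower and 3.38% higher), none changed 2-fold (1.44%) and 8 did not overlap (48.5%). Abcc3 was also called in 7 of 14 alternatives. For β-catenin ΔGSK against FAK KO, 1 member (Abcc1) was higher and 5 (Slc31a2, Atp7a, Abcb1a, Abcb1b, Abcg2) lower, where 23.7% and 34.4% of 11915 genes were, with medians of -0.33 and -0.09. Abcb1b alone changed 2-fold there, downwards (6.99% of all genes, and 12.1% in either direction), and it passed the filter only through the FAK KO cells. Samples did not overlap for 7 of the 9 (64.2% of all genes).

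**Figure D3:**
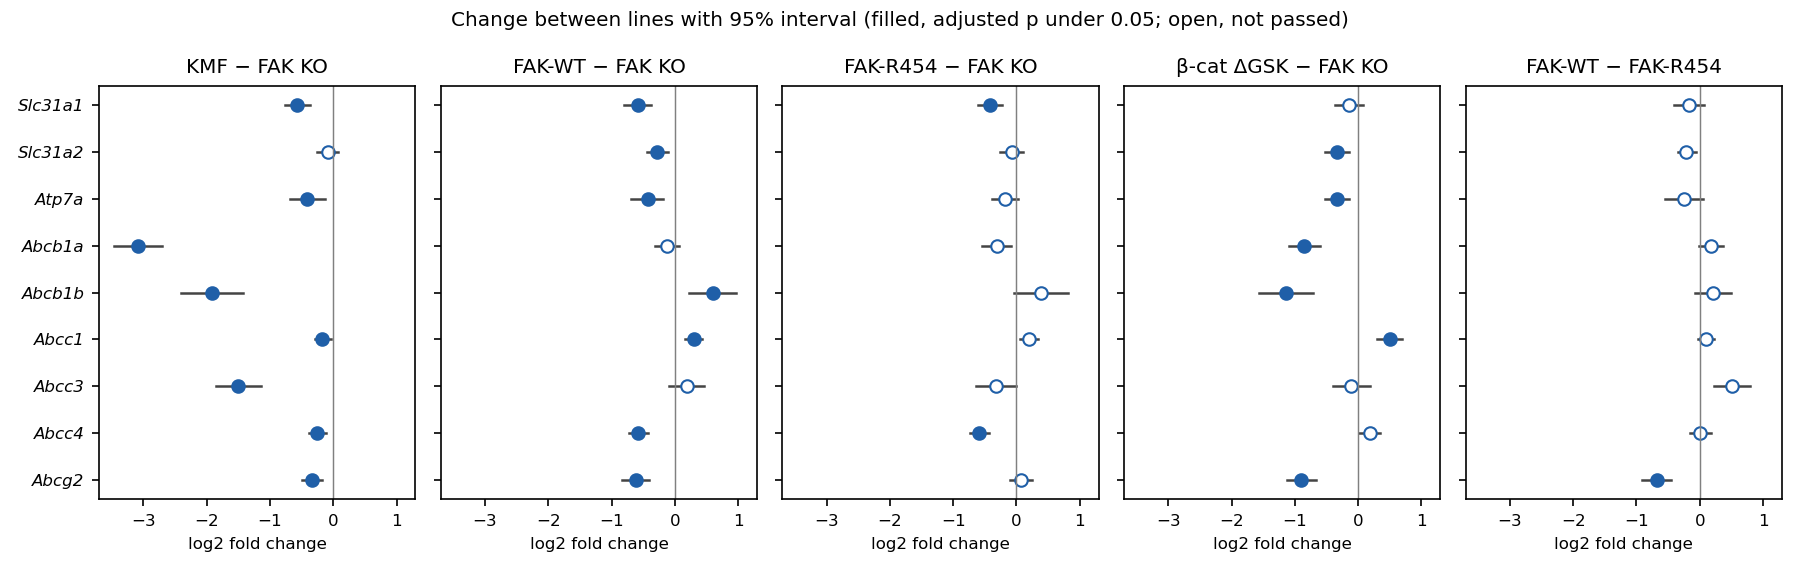
Log2 fold change of each tested transporter gene with its 95% interval in 5 comparisons, the first line named relative to the second (filled circles, adjusted p under 0.05 in limma; open circles, not passed). In the KMF panel 8 of 9 genes are filled and lie below 0, and in the last panel Abcg2 is the single filled circle.

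FAK-WT and KMF cells both contain FAK, and a comparison of the pair, added after the values had been seen, shows which members differed between them. Here 4 members were higher in FAK-WT cells and 3 lower, where 18.2% and 23.5% of 11847 genes were. The higher members were Abcb1a (2.96), Abcb1b (2.51) and Abcc3 (1.68), each 2-fold (3.82% of all genes, and 5.93% in either direction) and tested only through FAK-WT cells, and Abcc1 (0.46, adjusted p = 5.24e-04). Abcc4, Abcg2 (-0.29, adjusted p = 0.0265) and Slc31a2 (-0.19, adjusted p = 0.0277) were lower. The Abcg2 call was lost without KMF replicate 1, 2 or 3 or FAK-WT replicate 2 (values from -0.31 to -0.28, adjusted p from 0.0570 to 0.0841). That of Slc31a2 was lost without replicate 1 or 2 of either line (values from -0.21 to -0.19, adjusted p from 0.0627 to 0.0825). Slc31a1 and Atp7a lay within 0.03 of 0, with intervals of -0.25 to 0.21 and -0.37 to 0.32. Samples did not overlap for 7 of the 9 (55.5% of all genes).

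Genes that handle copper beyond the 4 transporters were read from a list of 20, of which 17 or 18 could be tested. The metallothioneins Mt1 and Mt2, small metal-binding proteins that also bind platinum, are described first. Mt1 was lowest in FAK KO cells (28.8, 36.7 and 18.3 FPKM), against 91.8, 86.2 and 172.2 in KMF, 75.5, 100.1 and 219.9 in FAK-WT, 77.3 and 85.7 in FAK-R454, and 56.5, 88.8 and 73.9 in β-catenin ΔGSK cells. No FAK KO sample overlapped any other line, and replicates of KMF and FAK-WT cells were widely spread. The change of Mt1 from FAK KO was 2.04 for KMF (adjusted p = 6.88e-04), 2.14 for FAK-WT (adjusted p = 0.00364), 1.60 for FAK-R454 (adjusted p = 0.00361) and 1.42 for β-catenin ΔGSK (adjusted p = 0.00121). Mt2 was higher in FAK-WT (2.52, adjusted p = 0.00395), FAK-R454 (1.83, adjusted p = 0.0158) and KMF cells (1.46, adjusted p = 0.0350), whereas its difference for β-catenin ΔGSK was -0.04 (adjusted p = 0.922). The metalloreductase Steap3, which reduces iron and copper in endosomes, was higher with either FAK form (1.28 and 1.66, adjusted p = 0.00119 and 6.97e-04), but it passed the filter only through the FAK-expressing line (0.849 FPKM on average for FAK KO). KMF samples, with 0.434, 0.549 and 0.341 FPKM, lay below those of FAK KO and were not tested against them.

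Across the copper list, set against FAK KO, 3 genes were higher and 1 lower for FAK-WT, 5 and 0 for FAK-R454, 4 and 4 for β-catenin ΔGSK (18 tested each), and 2 and 6 for KMF (17 tested). Of all genes tested, 15.6% were higher and 25.2% lower for FAK-WT, 9.78% and 9.89% for FAK-R454, 23.7% and 34.4% for β-catenin ΔGSK, and 23.1% and 28.7% for KMF. Counts this small on lists of this size are descriptions and do not set a list apart from these shares. The largest falls were in β-catenin ΔGSK cells, where the copper-binding ferroxidase ceruloplasmin (Cp) went from 135.5 ± 27.3 to 22.8 ± 5.02 FPKM (-2.57, adjusted p = 6.28e-06, SD, n = 3 each in limma) and the metalloreductase Steap4 from 23.7 ± 1.50 to 5.10 ± 0.640 FPKM (-2.20, adjusted p = 5.13e-07). Steap4 also separated the FAK forms, with 16.7, 15.6 and 11.6 FPKM in FAK-WT and 28.7 and 30.7 in FAK-R454 cells (-1.03, adjusted p = 0.0197). List medians were between -0.18 and 0.01, against -0.09 to -0.03 for all genes in the 4 comparisons with FAK KO.

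Of 13 other ABC pumps, 6 could be tested. In β-catenin ΔGSK cells 0 were higher and 3 lower than in FAK KO cells, and in FAK-WT, FAK-R454 and KMF cells 1, 1 and 1 were higher and 1, 2 and 1 lower, to be read against the shares of all genes just given (23.7% higher and 34.4% lower for β-catenin ΔGSK). The cholesterol exporter Abca1 was lowest in β-catenin ΔGSK cells, with 0.350, 0.414 and 0.434 FPKM against 3.36, 2.79 and 4.07 in FAK KO cells (-2.80, adjusted p = 3.16e-06; it passed the filter there only through FAK KO cells), and was also below FAK KO in KMF cells (1.41, 1.92 and 1.47 FPKM; -1.04, adjusted p = 0.00111) and FAK-R454 cells (1.78 and 1.89 FPKM; -0.85, adjusted p = 0.0101), with -0.11 for FAK-WT (adjusted p = 0.533).

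The last list held 18 genes, among them carriers of organic cations, nucleosides and folates and subunits of volume-regulated channels, of which between 10 and 12 could be tested. Set against FAK KO, 3 were higher and 4 lower for FAK-WT, 2 and 1 for FAK-R454, 3 and 5 for β-catenin ΔGSK, and 3 and 4 for KMF (12, 10, 11 and 11 tested), beside shares of all genes of 15.6% and 25.2%, 9.78% and 9.89%, 23.7% and 34.4%, and 23.1% and 28.7%. Slc19a1, the reduced folate carrier that takes up methotrexate, was at 2.32, 3.27 and 3.12 FPKM in FAK KO cells and higher in β-catenin ΔGSK (6.41, 7.73 and 7.13; 1.27, adjusted p = 8.85e-05) and KMF cells (7.02, 6.69 and 5.51; 1.12, adjusted p = 3.43e-04), and also for FAK-WT (0.73, adjusted p = 0.00420) and FAK-R454 (0.57, adjusted p = 0.0340). In β-catenin ΔGSK cells the volume-regulated anion channel subunit Lrrc8e was higher (1.77 to 2.31 FPKM against 0.553 to 0.745; 1.54, adjusted p = 1.00e-04; it passed the filter only through β-catenin ΔGSK cells), and the organic cation carrier Slc22a4 was lower (2.60 to 3.08 against 7.34 to 7.37; -1.38, adjusted p = 5.86e-06). The organic anion carrier Slco3a1 was higher in FAK-WT (0.877 to 1.24 FPKM) than in FAK-R454 cells (0.439 and 0.461), by 1.05 (adjusted p = 0.0409), and it passed the filter only through FAK-WT cells. In β-catenin ΔGSK cells the endothelial marker Pecam1 was also low (0.286 against 1.02 FPKM in FAK KO cells), and its part in these results was not tested.

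**Figure D4:**
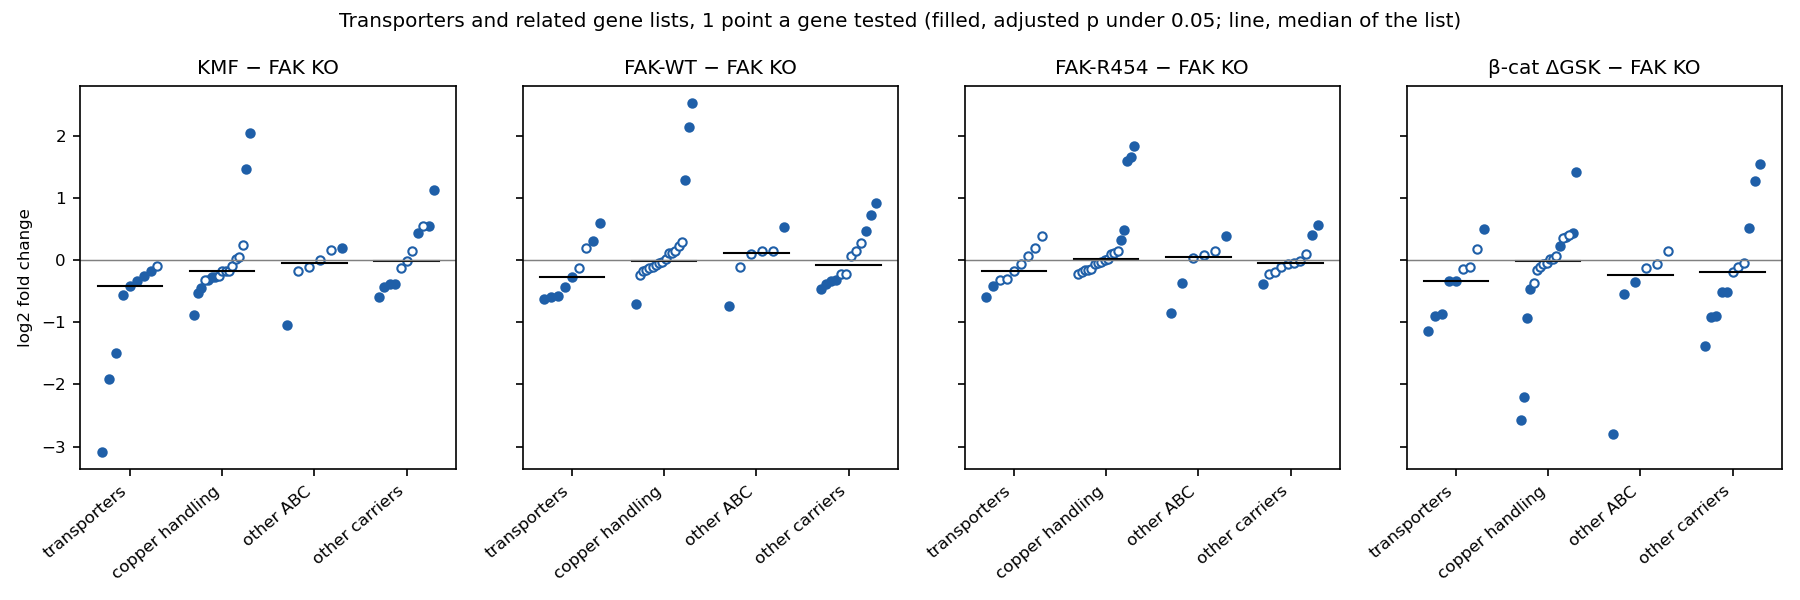
Log2 fold change from FAK KO of each tested gene in the transporter set and the 3 related lists (1 point a gene; filled, adjusted p under 0.05 in limma; open, not passed; horizontal line, median of the list). The lowest point of the transporters is Abcb1a in KMF cells (-3.08), and the copper handling list holds Mt1 and Mt2 at 2.14 and 2.52 in FAK-WT cells.

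Profiles of the members were compared over the 14 samples, which share the lines, so the following correlations are descriptions only. Abcb1a and Abcc3 had a Pearson r of 0.95 on the log2 scale, Abcb1a and Abcb1b 0.88, Abcb1b and Abcc3 0.78, Slc31a2 and Abcg2 0.84, and Slc31a1 and Abcc4 0.71. The most negative values were -0.78 for Atp7a and the nearly absent Atp7b, -0.7 for Slc31a2 and Abcc1, and -0.67 for Abcc1 and Abcg2. Among 12255 expressed genes, the profiles most like that of Abcb1a were those of Fam49a (r = 0.979; mean 0.547 FPKM in KMF and 9.55 in FAK KO cells) and Ganab (0.975). For Abcb1b they were Gfra4 (0.982) and Mst1 (0.980; mean 0.925 FPKM for KMF and 10.3 for FAK-WT), and for Abcc3 they were Nav3 (0.969) and Cdc42bpg (0.964). These 6 genes lie on chromosomes other than those of the member they resemble.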

How the data were processed

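Poly(A) RNA of 14 tumorsphere samples was sequenced in paired ends by the authors. They deposited 1 table of FPKM values per gene and sample, with gene positions and lengths. The study names TopHat2 as the mapper, the submitters' processing notes name STAR 2.5, CASAVA 1.8, DESeq2 and mm10 without roles, and the counting tool is not given in the sources used here. Samples were grouped by their labels. The members and lists were chosen with earlier results of these data known.

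FPKM times the gene length deposited gave whole fragments for 100% of the values (tolerance 0.01), which set the depth. Pairs of lines were compared with limma 3.58.1 (R 4.3.3; lmFit, eBayes with trend) on log2(FPKM + 0.1), over genes with mean FPKM above 1 in at least 1 line, with Benjamini-Hochberg adjustment over all of them and two-sided p. limma-voom on the recovered fragments called 4954, 2770, 6989, 6241 and 1096 genes where the FPKM fit called 4837, 2325, 6928, 6161 and 921 (FAK-WT, FAK-R454, β-catenin ΔGSK and KMF against FAK KO, then FAK-WT against FAK-R454). The code was tested on simulated data. The labels number samples of a line as replicates, and the protocol text of the samples calls them independent without naming cultures. The p-values therefore measure the spread between these samples.

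Named genes were all members, Ptk2 and Ctnnb1, the genes targeted or expressed, up to 3 genes per list and comparison with the largest non-overlapping 2-fold change, and the 2 genes most correlated with each member whose line means spanned at least 1. Ctnnb1 was at 214.1 FPKM in β-catenin ΔGSK, 144.6 in FAK KO and 199.9 in KMF cells, so its level does not mark the construct. Gene IDs were matched to GENCODE M21 (34490 of 35275 found, 72.2% with identical start and end), and promoter sequences are from RefSeq (GRCm38.p6), which held 8 of the 10 members in 11 entries. Alternatives were other pseudocounts (1, 0.01), no filter or FPKM above 5, 1 fit of 5 lines, no trend, median-of-ratios scaling, a replicate block, limma-voom, chromosome centring and leaving out each sample.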

Additional observations from a re-analysis of the deposited data

Results flagged for a closer look

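The ABC pump Abcg2 stood out because its change over FAK KO cells differed between the 2 forms of FAK. On the log2 scale it was -0.62 for FAK-WT but 0.07 for FAK-R454, and the direct difference between FAK-WT and FAK-R454 cells was -0.68 (adjusted p = 0.0165 from limma). All 3 FAK-WT samples (4.58 to 5.56 FPKM) lay below both FAK-R454 samples (8.05 and 8.37 FPKM). The FAK-R454 line has 2 samples here, and the call was lost without FAK-WT replicate 2 (-0.69, adjusted p = 0.0715), FAK-R454 replicate 1 (-0.66, 0.183) or FAK-R454 replicate 2 (-0.71, 0.176). In the last 2 fits the single FAK-R454 sample is assumed to vary like those of the other line.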

How the results depend on the processing

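Over the 54 log2 fold changes of members and 826 alternative values of them, 750 kept their direction and their side of the threshold, 41 lost the call, 24 gained it and 11 changed sign. Leaving out 1 sample at a time gave 4 to 7 changed members in FAK-WT against FAK KO cells (4 without FAK KO replicate 3), 1 to 3 in FAK-R454 against FAK KO cells (1 without either FAK-R454 sample), and 0 to 4 in FAK-WT against FAK-R454 cells (0 without FAK-WT replicate 2 or either FAK-R454 sample, 4 without FAK-WT replicate 3). Where 1 FAK-R454 sample was left, it was assumed to vary like the other line, and Slc31a1 there was -0.39 or -0.45 against FAK KO. limma-voom gave 4 changed members in FAK-R454 against FAK KO cells. In KMF against FAK KO cells, 5 members changed with the filter at FPKM above 5, which leaves out the low genes, and 5 with each chromosome centred. The 2-fold count there was 1 with a pseudocount of 1 and 0 with the stricter filter, and for β-catenin ΔGSK against FAK KO cells it was 0 with a pseudocount of 1, with the stricter filter and with chromosome centring. Between FAK-WT and FAK-R454 cells, 2 members (Abcg2 and Abcc3) changed with median-of-ratios scaling, without trend, in 1 fit of 5 lines, with limma-voom and with chromosome centring. The cause was not tested otherwise. Sign changes were Abcg2 in KMF against FAK KO cells (0.01 with chromosome centring), Abcc4 in FAK-WT against FAK-R454 cells (-0.02 to 0.06 leaving out samples), and, in FAK-WT against KMF cells, Slc31a1 (0.01 with median-of-ratios scaling, 0.01 with centring, -0.08 to 0.06 leaving out samples) and Atp7a (0.04 with centring, -0.11 to 0.11 leaving out samples). In the last comparison the stricter filter left 4 changed members and 0 changed 2-fold. Median-of-ratios scaling moved all genes by 0.11 on the log2 scale in β-catenin ΔGSK against FAK KO cells and by 0.03 to 0.07 in the others. Sample numbers recur across lines, and the labels do not say that they pair the samples. Deviations of same-numbered samples correlated between -0.23 and 0.41 over all comparisons. In β-catenin ΔGSK against FAK KO cells they correlated at 0.41, 0.24 and 0.08, so whether the numbers pair samples there is not known. With the replicate block 3 members changed in FAK-WT against FAK-R454 cells (Abcc1 0.13, adjusted p = 0.0427, Abcc3 0.56, adjusted p = 0.0179, and Abcg2). Slc31a1 (-0.15, adjusted p = 0.0475) and Abcc4 (0.18, adjusted p = 0.0212) passed in β-catenin ΔGSK against FAK KO cells. Abcc1 was lost in KMF against FAK KO cells (-0.17, adjusted p = 0.105) and Slc31a2 in FAK-WT against KMF cells (-0.19, adjusted p = 0.0714). The block changed no other call. Depth limits Atp7b and the KMF values of Abcb1a and Abcb1b, which rest on at most 89 fragments a library, and with 3 samples against 3 an exact permutation test cannot give a two-sided p below 0.1.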
